A study of Mus musculus with 10 samples.

Results

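Transthyretin (Ttr) and 9 further genes for proteins that the liver releases into plasma were examined in BMEL cells, a bipotential cell line of the mouse embryonic liver with access to both the hepatocyte and the bile duct lineage. The genes were taken by symbol: Ttr, Rbp4, Alb, Afp, Trf, Ahsg, Fga, Fgb, Fgg and Vtn. Probe sets, the groups of short probes that together measure a transcript, were used where the platform annotation gave exactly 1 of these symbols. This gave 17 of the 45101 probe sets on the array, for 9 of the 10 genes. The probe set for Trf, which encodes transferrin, carries 2 gene symbols, so Trf was not analysed here. The probe set that stands for a gene was chosen by its level, as the brightest over all 10 arrays. The genes themselves were picked by name, with the earlier result for the antisense against scrambled difference of Ttr in these data known, so that difference is described here and is no independent evidence.

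All cells were transfected with Oligofectamine. The antisense group (5 arrays) received an oligonucleotide of locked nucleic acid chemistry directed against miR-30a, and the scrambled group (5 arrays) a control oligonucleotide of scrambled sequence; arrays are numbered 1 to 5 in both groups. The question is which transcript levels depend on this microRNA. The level of miR-30a itself was not analysed here, and the labels do not say whether the arrays of a group came from separate cultures, so the spread behind each p-value is that of these arrays and could be technical.

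Hepatocytes secrete most of the proteins of blood plasma. Transthyretin carries thyroid hormone and binds retinol-binding protein, the Rbp4 product, which brings retinol from the liver to other tissues. Albumin is the main carrier protein of adult plasma, and alpha-fetoprotein, from the neighbouring gene of the same family, is its fetal counterpart. Transferrin carries iron, fetuin-A (Ahsg) binds calcium phosphate, vitronectin (Vtn) binds cells and matrix, and the 3 fibrinogen chains (Fga, Fgb, Fgg) form the precursor of the clot. Ttr and Afp are switched on early in liver development and are used as marks of the hepatoblast, the embryonic precursor of hepatocytes and bile duct cells.

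The sequences that the treatment and 2 of the liver genes turn on are shown first. A microRNA pairs with its targets mainly through its seed, bases 2 to 8, given in capitals. The mature 5p forms of the miR-30 family found in RefSeq's table (GRCm38.p6) all share the seed of miR-30a, whose gene is on chromosome 1.
miR-30a-5p: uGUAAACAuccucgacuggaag
miR-30c-5p: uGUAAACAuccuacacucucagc
miR-30e-5p: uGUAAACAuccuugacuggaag
Counted from the 5′ end, miR-30e-5p differs from miR-30a-5p by C13U, so 21 of 22 bases match, and the array experiment does not tell which family members the oligonucleotide reached.

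The neighbours Alb and Afp are shown because they are the textbook liver genes of the group and because HNF1, a liver transcription factor, is known to bind before both starts. The 120 bases before each start are given from RefSeq (GRCm38.p6, plus strand), with the letters GTTAAT or their reverse complement, the core of the HNF1 motif, in capitals.
Alb, chr5:90460750-90460869: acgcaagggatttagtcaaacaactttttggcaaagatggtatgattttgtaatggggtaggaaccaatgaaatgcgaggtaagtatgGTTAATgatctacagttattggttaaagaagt
Afp, chr5:90490594-90490713: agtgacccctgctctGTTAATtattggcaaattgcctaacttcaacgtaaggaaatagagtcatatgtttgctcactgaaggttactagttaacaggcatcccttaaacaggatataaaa
The 250 bases before the start were searched on both strands for 8 genes, Afp, Ahsg, Alb, Fga, Fgb, Fgg, Rbp4 and Vtn, and 5 of them held this core: Afp, Alb, Fga, Fgb and Vtn. Of all 32851 stretches of 250 bases before a start in the table, 6.43% did. Ttr was not among the genes searched. A match is a description of the letters and not a bound site.

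Markers of liver epithelium stood at unlike levels on these arrays. The keratin genes Krt8 and Krt18, markers of simple epithelium, stood at 13.8 and 13.7 in scrambled arrays on the log2 scale. Hnf4a, a transcription factor of hepatic cells, stood at 10.7. The log2 changes of Krt8, Krt18 and Hnf4a were -0.004, -0.02 and -0.02. Ttr, Alb and Afp read 8.79, 4.73 and 6.33 in scrambled arrays. The bile duct markers Krt19, Krt7, Sox9 and Epcam read 13.5, 11.6, 7.19 and 6.34 there. Array medians lay between 5.21 and 5.24, and 12633 genes passed the filter on dim probe sets, a mean of at least 4.56. Without a replicate block, 193 of them (1.53%) passed limma's test at an adjusted p of 0.05, and with the replicate number as a block 385 (3.05%) did. With 1 array left out the first count was 95, 92 or 123 where that array was antisense 3, 4 or 5, and 101 where it was scrambled 3.

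Ttr was lower in the antisense arrays, and Rbp4, Alb and Afp differed by at most 0.10 on the log2 scale. Only 4 of the 10 genes passed the filter, Ttr, Rbp4, Alb and Afp. None of the 4 passed the test without the block (limma, threshold 0.05), 1 had an unadjusted p under 0.05, and 1 passed with the block, in both cases Ttr. The background shares are 1.53% of all genes tested without the block, 12.9% at an unadjusted p under 0.05, and 3.05% with the block. At an unadjusted p under 0.05 with the block the share is 17.2%. Because a gene that is dim in both groups cannot be tested, these counts say nothing of Ahsg, the fibrinogen genes or Vtn. They say nothing of Trf either, whose probe set carries 2 gene symbols and whose level was not examined.

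Ttr was measured by 4 probe sets, all above the filter level. On the main probe set, 1454608_x_at, the scrambled arrays 1 to 5 read 8.87, 8.24, 8.54, 8.68 and 9.60. The antisense arrays 1 to 5 read 7.91, 6.74, 7.57, 7.58 and 8.30. The groups overlapped by 1 array each, since antisense array 5 lay above scrambled array 2. Arrays numbered 5 were the highest of both groups and arrays numbered 2 the lowest, and the antisense array was the lower of its pair in all 5 pairs.

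The group means of Ttr were 8.79 ± 0.51 for scrambled and 7.62 ± 0.57 for antisense (SD, n = 5 each), a log2 change of -1.17, or 2.25-fold lower. This was the second most negative change among the 12633 genes, while the spread of Ttr within groups was the third largest, against a median change of 0.01 over all genes. The standard error of the change was 0.27 without the block, with a limma adjusted p of 0.0574, and 0.079 with the block, with an adjusted p of 0.000812. Within pairs the differences were -0.96, -1.50, -0.97, -1.10 and -1.31, with an SD of 0.23. They varied less than the arrays of either group did. A two-sided exact permutation test over the 10 arrays gave p = 0.0159, with 0.00794 as the smallest value possible. That test treats the 10 arrays as independent, although for Ttr arrays of the same number varied together. The exact test within 5 pairs gave 0.0625, the smallest it can give. Both describe a difference that was known when Ttr was chosen.

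**Figure D1:**
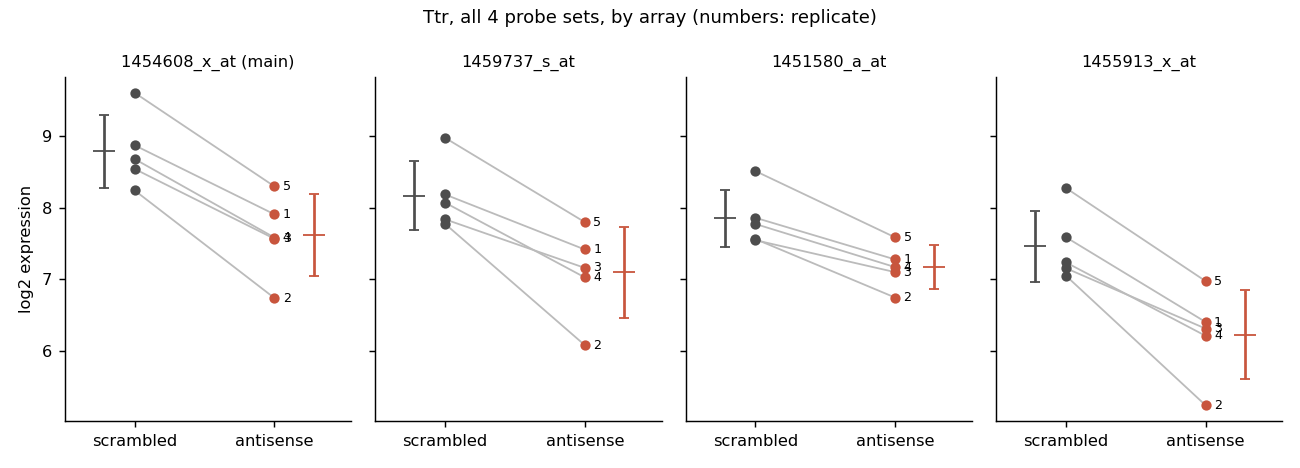
Log2 expression of Ttr on each of its 4 probe sets in the 5 scrambled (grey) and 5 antisense (red) arrays, with grey lines joining arrays of the same replicate number, printed beside each antisense point, and bars giving the mean and SD of each group. On every probe set the line falls in all 5 pairs, and array 2 is the lowest antisense array on each.

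The call for Ttr depends on how the arrays are treated. Without antisense replicate 5 the change was -1.34 (limma adjusted p = 0.0368), and without scrambled replicate 2 it was -1.30 (adjusted p = 0.0469), so that these 2 of the 10 fits with 1 array left out passed. The adjusted p ranged up to 0.138 in the other fits. With the block and 1 pair left out, Ttr passed in all 5 fits (adjusted p from 0.00213 to 0.0073).

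The other probe sets of Ttr all read lower in the antisense array of every pair, by different amounts. On 1459737_s_at the means were 8.17 ± 0.48 for scrambled and 7.10 ± 0.64 for antisense (SD, n = 5 each), a change of -1.07 or 2.10-fold. On 1455913_x_at they were 7.46 ± 0.50 and 6.23 ± 0.63 (SD, n = 5 each), a change of -1.23 or 2.35-fold. This was the only probe set of the 17 on which the groups did not overlap, against 3.92% of all genes tested, or 1.18% with antisense lower.

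The probe set 1451580_a_at gave the smallest difference, with means of 7.85 ± 0.39 and 7.17 ± 0.30 (SD, n = 5 each), a change of -0.67 or 1.60-fold. In Affymetrix names, the ending _a marks probes that match several transcripts of the same gene, _s probes shared between transcripts, and _x a set in which some probes also match other sequences. Its change was smaller in size than that of the main probe set by 0.49. No p is given for this gap, since 1451580_a_at is singled out here for its smallest difference. The size of the Ttr decrease thus lay between 1.60-fold and 2.35-fold depending on the probe set. Fitted among all probe sets above the filter, all 4 missed the threshold without the block (limma adjusted p from 0.081 to 0.125) and passed with it (0.00155 to 0.0101).

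Rbp4, the retinol carrier that travels bound to transthyretin, had 1 probe set. Scrambled arrays 1 to 5 read 12.92, 12.83, 12.88, 12.87 and 12.97, and antisense arrays 12.83, 12.72, 12.86, 12.86 and 12.88. The groups overlapped, with antisense array 2 below all others, while the antisense array was the lower of its pair in all 5 pairs, as for 6.67% of genes tested. The change was -0.07 (SE 0.043) and did not pass with or without the block (limma adjusted p = 0.579 and 0.369). The values lie high on the array's scale, and whether the response flattens there was not tested.

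Alb and Afp, the adult and the fetal member of the albumin family, did not pass either. Alb lay just inside the filter, at a mean of 4.71, with 4.73 ± 0.14 for the scrambled and 4.70 ± 0.075 for the antisense group (SD, n = 5 each). Its change of -0.03 (SE 0.064, limma adjusted p = 0.898) turned to 0.01 without scrambled replicate 5, so no direction can be given. The albumin transcript of these cells was thus close to the level at which probe sets were left out, in both groups.

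Afp had 5 probe sets, of which 2 lay above the filter. On the main probe set, 1416646_at, scrambled arrays 1 to 5 read 6.37, 6.36, 6.32, 6.43 and 6.18, and antisense arrays 6.30, 6.42, 6.49, 6.48 and 6.46. The antisense array was the higher in 4 of 5 pairs and the groups overlapped. The change was 0.10 (SE 0.053, limma adjusted p = 0.481 without and 0.39 with the block), and 0.11 on 1416645_a_at. The 3 probe sets below the filter, with means from 3.73 to 4.43, had changes from 0.01 to 0.11.

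The other 5 genes lay below the filter on their brightest probe set: Fgb at a mean of 4.52, just outside it, Ahsg at 4.37, Vtn at 4.09, Fgg at 3.76 and Fga at 2.80. In a fit without the filter, over 18193 genes, their log2 changes were 0.08 for Fgb, -0.07 for Ahsg, 0.10 for Vtn, -0.01 for Fgg and 0.11 for Fga. None passed (limma adjusted p from 0.378 to 0.969, and from 0.342 to 0.954 with the block). Vtn had 2 probe sets, and its second, at a mean of 3.13, had a change of 0.08. At such readings a change in transcript could be missed, so these values set no limit on how much these genes differed.

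**Figure D2:**
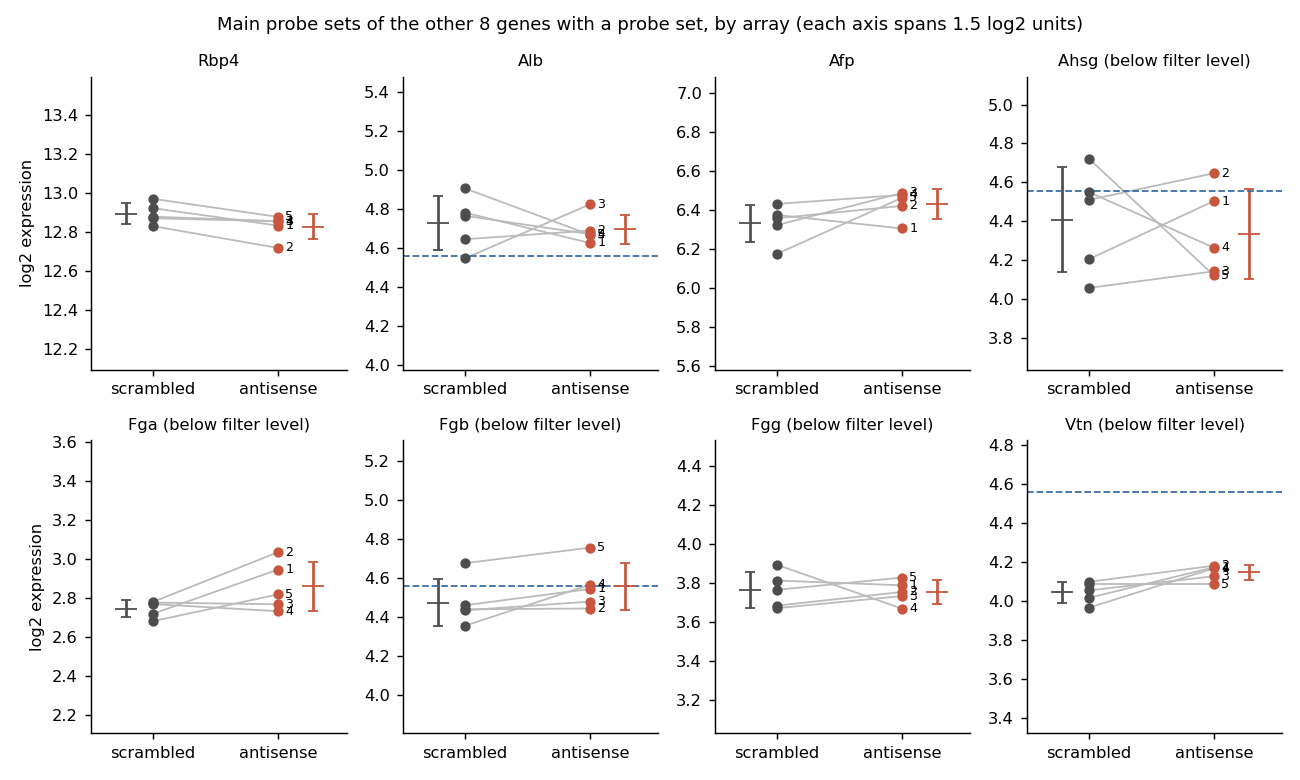
Log2 expression on the main probe set of the other 8 genes with a probe set, in scrambled (grey) and antisense (red) arrays, with same-numbered arrays joined, group means and SD as bars, and the filter level of 4.56 as a dashed line. Each axis spans 1.5 log2 units, so the panels can be compared in spread, and the groups overlap in every panel.

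Ttr and Rbp4 varied together from array to array. Over the 10 arrays Pearson's r was 0.909 and Spearman's rho was 0.842. Arrays of the same number varied together for Ttr, so the 10 arrays may not be independent. The 3 correlations computed with Ttr are therefore given as descriptions with no p. Without antisense array 2 and scrambled array 5, the arrays farthest from the median of Ttr, r was 0.662. After each group's mean was taken off, r was 0.922, so the likeness is not only the difference between the groups. With 5 arrays a group, r was not computed within groups.

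The range of Rbp4 over the 10 arrays was 0.252 on the log2 scale, against 2.86 for Ttr. Alb had an r of 0.383 with Ttr and a rho of 0.224, and r was -0.032 without the same 2 arrays. Afp ran the other way, with an r of -0.642 and a rho of -0.503, and an r of -0.408 without them.

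**Figure D3:**
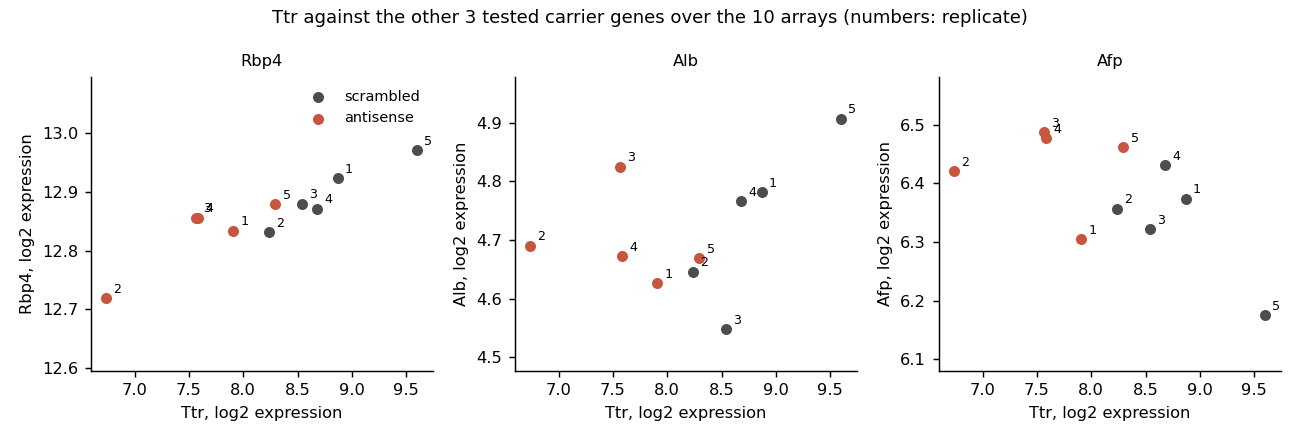
Log2 expression of Rbp4, Alb and Afp (y axes, each spanning 0.5 log2 units) against that of Ttr (x axes) in the 5 scrambled (grey) and 5 antisense (red) arrays, numbered by replicate. Rbp4 rises with Ttr (r = 0.909), with antisense array 2 lowest and scrambled array 5 highest in both, while Alb (r = 0.383) and Afp (r = -0.642) do not.

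The tested genes whose values were most like those of Ttr over the 10 arrays were Cst9, C4bp, Cst3, Ugt2b36 and Rasl11a, with Pearson's r from 0.977 to 0.983. They were chosen for this likeness, which includes the difference between the groups. Their r, their changes and their calls are therefore descriptions and no separate evidence. C4bp encodes a plasma protein that restrains complement, Cst3 the secreted protease inhibitor cystatin C, Cst9 another cystatin, Ugt2b36 a glucuronosyltransferase of the liver type and Rasl11a a small Ras-like GTPase. Their log2 changes between the groups were smaller in size than that of Ttr: -0.75 for Cst9, -0.57 for Ugt2b36, -0.48 for C4bp, -0.47 for Rasl11a and -0.21 for Cst3.

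With the block all 5 passed (limma adjusted p from 0.00112 for Cst9 to 0.0182 for Cst3), while without it only Cst9 did (adjusted p = 0.0483). The shares over all genes tested were 3.05% and 1.53%, but a likeness to Ttr favours genes that are lower with antisense. For Cst9 that call held in 1 of the 10 fits with 1 array left out, the one without antisense 5. With the block and 1 pair left out Cst9, C4bp, Ugt2b36 and Rasl11a passed in all 5 fits and Cst3 in 2, those without pair 1 or 4. Scrambled array 5 was the highest for all 5 of these genes and antisense array 2 the lowest, as for Ttr. In all, 85 tested genes had an r over 0.9 with Ttr and 57 an r under -0.9, and Rbp4 ranked 74th by r.

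By deviations from the group means, which leave the treatment out, the nearest genes were Camk2n1, an inhibitor of a calmodulin kinase, Sptssb, a subunit of the enzyme that starts sphingolipid synthesis, Tmigd1, the intramembrane protease gene Sppl2a and the helicase gene Helz2, with r from 0.976 to 0.981. With the block Sptssb and Tmigd1 passed, lower in antisense arrays (-0.38 and -0.37, limma adjusted p = 0.0181 and 0.0106). The shares over all genes tested were 3.05%, and 1.04% for lower. A likeness in deviations favours genes whose spread the block reduces, so these calls are descriptions. With 1 pair left out Sptssb and Tmigd1 passed in 3 and 5 of 5 fits, Sptssb not without pair 4 or 5. Camk2n1, at -0.14, did not pass with the block (adjusted p = 0.102). Sppl2a and Helz2, at -0.03 each, did not pass either (adjusted p = 0.768 and 0.765). By this measure 139 tested genes had an r over 0.9 and 130 an r under -0.9.

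**Figure D4:**
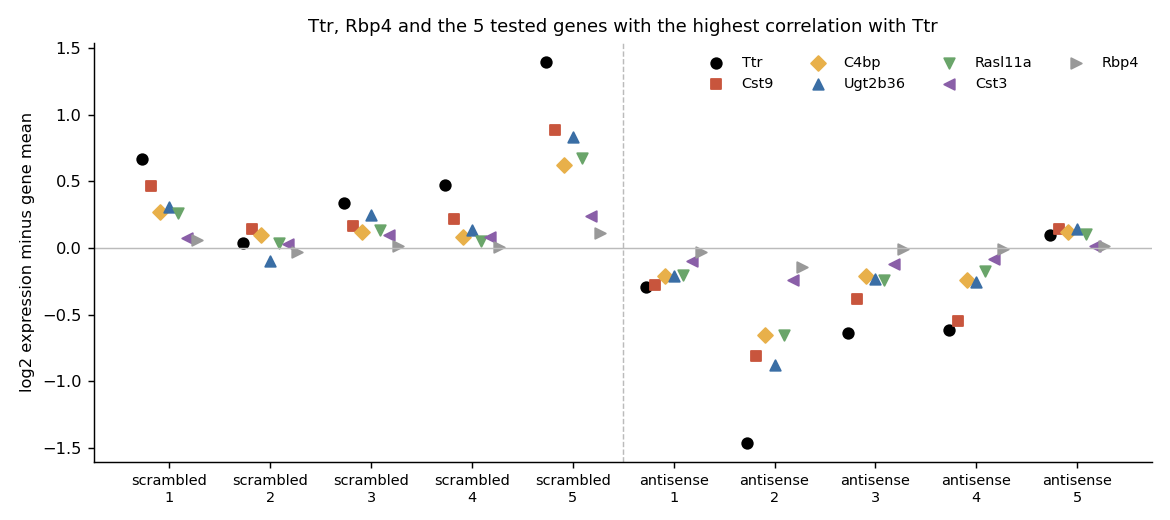
Log2 expression minus the gene's mean over the 10 arrays for Ttr, for the 5 tested genes with the highest correlation with it and for Rbp4, in each of the 5 scrambled and 5 antisense arrays. Scrambled array 5 is the highest and antisense array 2 the lowest for each of these genes, and Ttr has the widest range.

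The partners and handlers of what these proteins carry were examined next. The lists were drawn up with earlier results of these data known, and a retinoid list was made because Rbp4 and Ttr carry retinol. Of 11 tested genes of retinoid handling, 1 rose and none fell without the block, against 1.16% and 0.372% of all genes, and 1 rose and 1 fell with the block, against 2.00% and 1.04%. At an unadjusted p under 0.05 (limma) there were 5 of the 11 without and 6 with the block, against 12.9% and 17.2% of all genes tested. The median change of the list was -0.07, against 0.01 over all genes.

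Rarg, a nuclear receptor for retinoic acid, rose from 8.27 ± 0.039 (SD, n = 5) to 8.44 ± 0.039 (SD, n = 5), a change of 0.17 (SE 0.037, limma adjusted p = 0.0402). Its groups did not overlap, as for 2.74% of genes tested with antisense higher, but the call is at the threshold: the adjusted p was 0.0526 with the block, and it passed in 2 of 10 fits with 1 array left out. It passed without antisense replicate 1 or scrambled replicate 5. A second Rarg probe set was at 0.21.

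Aldh1a1, a retinaldehyde dehydrogenase that makes retinoic acid, fell with the block by 0.31 (SE 0.044, limma adjusted p = 0.0119), from 10.05 ± 0.27 to 9.73 ± 0.22 (SD, n = 5 each). Scrambled arrays 1 to 5 read 10.19, 9.74, 9.99, 9.89 and 10.43 and antisense arrays 9.74, 9.44, 9.76, 9.67 and 10.05. Here too arrays numbered 5 were the highest and arrays numbered 2 the lowest of both groups, and without the block the adjusted p was 0.303. Cyp26b1, an enzyme that breaks retinoic acid down, rose with the block by 0.24 (SE 0.047, adjusted p = 0.036), and its groups did not overlap. With 1 pair left out Aldh1a1 passed in all 5 fits and Cyp26b1 in none (adjusted p from 0.0651 to 0.0992). The related gene Cyp26a1 was at -0.38 (adjusted p = 0.258 without and 0.254 with the block).

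Among 3 tested genes for thyroid hormone handling none rose and 1 fell with the block, against 2.00% and 1.04% of all genes tested. This was Slc16a10, a transporter of aromatic amino acids and thyroid hormone, which fell by 0.20 (SE 0.039, limma adjusted p = 0.0409). Without the block the adjusted p was 0.321, and with the block and 1 pair left out it passed in none of 5 fits (0.0514 to 0.127). A second Slc16a10 probe set was at -0.27. The thyroid hormone receptor gene Thra was at -0.09 and Thrsp, a thyroid hormone responsive gene, at -0.05. None of 12 genes of iron uptake and storage passed with or without the block. With the block 1 of the 12 had an unadjusted p under 0.05 (limma), against 17.2% of all genes tested. The iron exporter gene Slc40a1 was at -0.19, the transferrin receptor gene Tfr2 at 0.07 and the protease gene Tmprss6 at 0.08.

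Of 11 tested genes for receptors and binding partners, none passed without the block. With the block 2 rose and none fell, against 2.00% and 1.04% of all genes tested. Itgb3, the integrin chain that binds vitronectin and fibrinogen, rose by 0.23 (SE 0.044, limma adjusted p = 0.0359 with and 0.169 without the block). Lrp2, the uptake receptor megalin, which binds transthyretin and retinol-binding protein, rose by 0.18 (SE 0.035, adjusted p = 0.0324 with and 0.409 without the block). Each rise rests on 1 probe set, since a second one was at -0.04 for Itgb3 and at -0.01 for Lrp2. With 1 pair left out, Itgb3 passed in 1 of 5 fits with the block, the one without replicate 1, and Lrp2 in none. The insulin receptor gene Insr, whose product fetuin-A binds, was at -0.14 and did not pass.

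None of the 17 tested transcription factors of plasma protein genes passed with or without the block (4 had an unadjusted p under 0.05 with the block, limma, against 17.2% of all genes tested). Cebpa, a driver of hepatocyte genes, read lower with antisense in each of the 5 pairs, with a change of -0.25 (SE 0.079, adjusted p = 0.158 without and 0.067 with the block). Foxa1 was at -0.09, Onecut1 at -0.11 and Foxa2 at 0.03. The median of this list was -0.01.

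Of 34 other secreted plasma proteins of the liver, 30 had a probe set with 1 symbol and 9 passed the filter. None of the 9 passed with or without the block, against 3.05% and 1.53% of all genes tested. None had an unadjusted p under 0.05 with the block (limma), against 17.2% of all genes tested. The median change of the 9 was -0.05, with a range of -0.09 to 0.10. The list does not hold every plasma protein. C4bp, chosen above for its likeness to Ttr, is not on it and was at -0.48 (limma adjusted p = 0.00965 with the block). The heme carrier hemopexin, Hpx, was at -0.08, the copper carrier ceruloplasmin, Cp, at 0.10 and the plasmin inhibitor gene Serpinf2 at -0.09. Of 9 genes of acute phase signalling none passed with or without the block, with Saa3 at -0.11, Lbp at -0.16 and Pias3 at 0.06. With the block 1 of the 9, Lbp, had an unadjusted p under 0.05 (limma), against 17.2% of all genes tested.

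**Figure D5:**
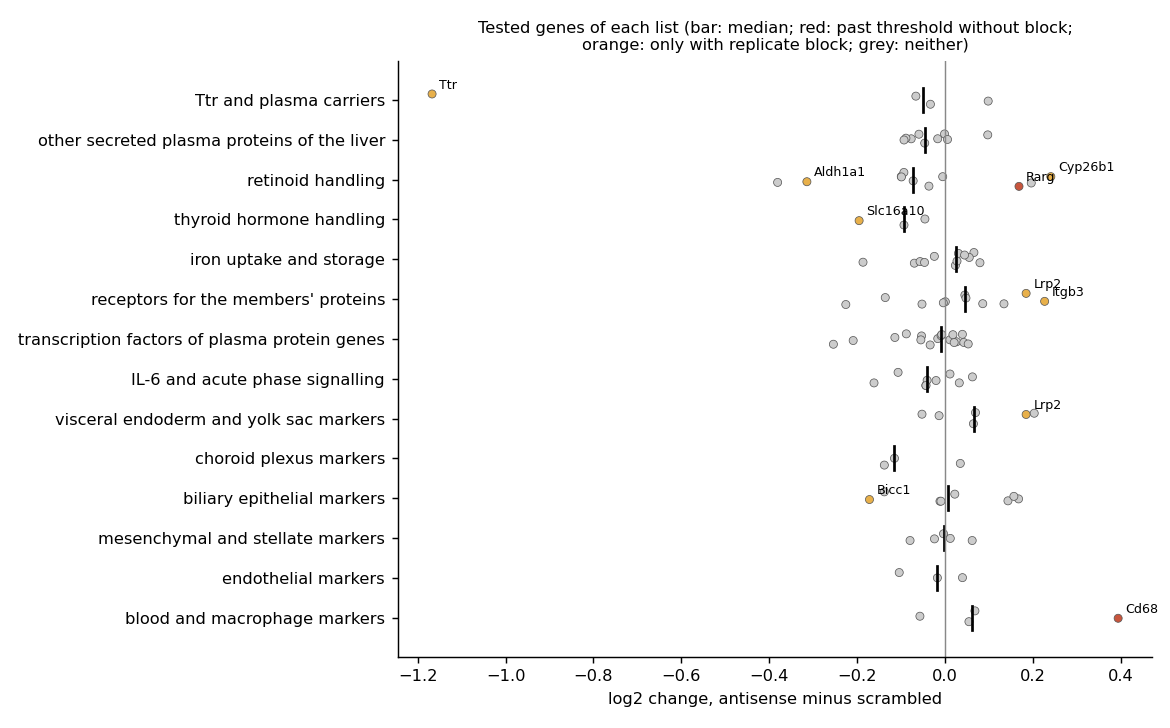
Log2 change, antisense minus scrambled (x axis), of each tested gene in the lists named on the y axis, with a bar at the median of each list. Genes past the threshold without the block are red and those past it only with the block orange, and Ttr, at -1.17, lies apart from all other genes shown.

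Ttr is also made by visceral endoderm, the epithelium around the early embryo, and by choroid plexus, the brain tissue that makes cerebrospinal fluid. Of 6 tested visceral endoderm markers none passed without the block and 1, Lrp2, rose with it, against 2.00% of all genes tested. Their mean level per array was 6.11 to 6.18 in scrambled and 6.14 to 6.27 in antisense arrays. Rhox5, a homeobox gene, was at 0.20 (limma adjusted p = 0.311 without and 0.202 with the block) and Dab2, an endocytic adaptor gene, at 0.06. Cubn, Amn and Apoa4 of the same list passed the filter, at 7.60, 4.83 and 5.05 in scrambled arrays, with changes of -0.05, 0.07 and -0.01. Sox17 and Cited1, which help to define visceral endoderm, were below the filter. Of 3 tested choroid plexus markers none passed with or without the block, against 3.05% and 1.53% of all genes tested. Their mean levels overlapped, from 4.95 to 5.15 in scrambled and from 4.86 to 5.12 in antisense arrays. The folate receptor gene Folr1 was at -0.12, the water channel gene Aqp1 at -0.14 and Clic6 at 0.03. Otx2 and Kl, which help to define choroid plexus, were below the filter.

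Of 8 tested biliary epithelial markers none passed without the block and 1 fell with it, against 1.04% of all genes tested. Without the block 4 had an unadjusted p under 0.05 (limma), against 12.9% of all genes tested. The changes of the 8 markers had no common sign, with 4 changes below 0 and 4 above and a median of 0.01. With the block Bicc1, an RNA-binding protein gene, fell by 0.17 (SE 0.035, limma adjusted p = 0.043, and 0.0846 to 0.129 with 1 pair left out). Sox9, a transcription factor of bile duct cells, read higher with antisense in all 5 pairs and without overlap of the groups, by 0.17 (SE 0.041), a change of similar size that missed the threshold (limma adjusted p = 0.0662 without and 0.0571 with the block, and 0.0437 without the block under the 60th percentile filter). Itgb4, an integrin chain of epithelia, also read higher in all 5 pairs, by 0.16 (SE 0.047, adjusted p = 0.143 without and 0.0866 with the block). Groups that do not overlap with antisense higher were found for 2.74% of all genes tested, and a higher antisense array in all 5 pairs for 10.6%. The mean level of the 8 markers was 8.91 to 9.003 in scrambled and 8.93 to 9.006 in antisense arrays. None of 5 mesenchymal and stellate markers and none of 3 endothelial markers passed with or without the block, against 3.05% and 1.53% of all genes tested. In lists this small, such a count says little. Of the former, the smooth muscle actin gene Acta2 was at 0.06, and the matrix genes Col1a2 and Dcn were at -0.08 and -0.02. Of the latter, the receptor genes Flt1 and Kdr were at -0.10 and -0.02 and the transcription factor gene Erg at 0.04. Among the markers of blood cells and macrophages 4 were tested and 1 rose without and with the block, against 1.16% and 2.00% of all genes tested. This was Cd68, which encodes a protein of the lysosomal membrane. It rose by 0.39 (SE 0.072, limma adjusted p = 0.0176, but 0.0523 and 0.0551 without antisense 3 or 4). Fcgr1, an antibody receptor gene, was at -0.06 and Cx3cr1, a chemokine receptor gene, at 0.07. Csf1r, which read 6.41 in scrambled arrays, was at 0.05. Of the same list Ptprc and Adgre1, which define blood cells and macrophages, were below the filter. The part of these cell types in the Ttr difference was not tested, and in bulk samples fewer cells that make a transcript and less of it per cell cannot be told apart.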

How the data were processed

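Total RNA (100 ng per sample) was amplified and biotin-labelled, per the labels' protocols, and read on 10 Affymetrix mouse arrays. The deposited values are log2 expression, 1 per probe set and array; the scale was read from the values, and how the authors summarised, background-corrected and normalized them is not given in the sources used here. They were used as they stand. Probe sets with several symbols were left out. Each gene was represented by its brightest probe set, and genes under the 40th percentile of probe set means were left out.

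Linear models were fitted with R 4.3.3 and limma 3.58.1 (functions lmFit and eBayes), with two-sided p-values adjusted after Benjamini-Hochberg over all genes tested. Python 3.11.15 with matplotlib 3.10.9 made the figures. The fit was tested on simulated data. After group means were removed, arrays that share a number correlated at 0.172, 0.377, 0.112, 0.152 and 0.335 over the genes tested. Each was over 0.1, the limit set beforehand in the settings, so the numbers were treated as pairing the arrays. Arrays of different numbers correlated from -0.312 to 0.231, with a mean of -0.059. The values 0.172, 0.112 and 0.152 lie inside that range, so for those pairs the correlation does not establish the pairing. This pairing comes from the values, not from the labels, and every result with the block rests on it. The genes and lists were chosen with earlier results of these data known. Named were the 10 carrier genes, the 3 genes of smallest p and any called gene in each list. The 5 genes most like Ttr by each of 2 measures were also named. Some genes of interest (Foxa2, Krt8, Krt18, Hnf4a, Krt19, Krt7, Epcam) were added after their values were seen. The number of arrays limits the precision. Of the sequences, those of 8 carrier genes and 3 mature microRNAs were matched by symbol in RefSeq's tables.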

Additional observations from a re-analysis of the deposited data

Results flagged for a closer look

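Rbp4 in antisense array 2 read 12.72, apart from the other 4 antisense arrays, which read 12.83 to 12.88: the gap was 0.719 of the group's range, above the critical 0.71 for groups of 5. It was the only such value among 34 groups checked, where chance gives about 1 in 20. The same array was the lowest of all 10 for Ttr, at 6.74.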

How the results depend on the processing

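With the replicate block 385 genes passed the test and 303 with a trended, robust variance prior, against 193, of which 184 were shared with the blocked fit. With 1 array left out the count ranged from 92 to 201, and with the block and 1 pair left out from 142 to 187. The Ttr change stayed below 0 under every alternative run. It passed the threshold with the replicate block (-1.17) and with a 60th percentile filter (-1.17, adjusted p = 0.0422), and with fewer arrays it ranged from -1.34 to -0.948, or -1.22, -1.08, -1.22, -1.19 and -1.13 with the replicate block and pair 1, 2, 3, 4 or 5 left out. It did not pass with quantile normalization, median centring, no filter, the mean of probe sets, every probe set or the trended prior. The number of carrier genes called was accordingly 1 with the replicate block, with the 60th percentile filter and with each pair left out, and 0 to 1 with 1 array left out. Alb changed sign: it ranged from -0.0786 to 0.011 (without scrambled replicate 5) with 1 array left out, and was 0.018 without pair 5 in the blocked fit. In the gene lists 2 genes passed without and 7 with the replicate block, where the shares over all genes tested were 1.53% and 3.05%. The calls of Rarg and Cst9 without the block were lost under most alternatives. Dim probe sets limit what can be said of 5 carrier genes.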
